A study of Mus musculus with 2 samples.

Results

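The genes described here are 34 genes of fatty acid and triglyceride synthesis, chosen by their symbols from the 32285 genes of 1 joined single-cell RNA matrix, and they were followed in hepatocytes and in the other cell classes of mouse liver. The matrix joins 2 liver samples, and the labels name 1 as Cebp_KO and 1 as Cebp_WT. Both samples came from mice fed for 2 weeks on the 40% HFCFD of the labels, a diet high in fat, fructose and cholesterol, before the livers were perfused, digested and enriched on a Percoll gradient. In the KO sample, Cebpa, a transcription factor of hepatocytes, was deleted only in hepatocytes per the series text. The study bred floxed Cebpa mice to Cre driven by the albumin promoter, either constitutive or inducible by tamoxifen, and its other knockout mice on this diet for 2 weeks are named as the constitutive line. The methods do not name the line of this KO sample. The age of the mice and whether a sample pooled several livers are not given either. The study used male mice.

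Each barcode of the matrix ends in the suffix 1 or 2, and the labels do not say which suffix belongs to which sample. Neither library was therefore assigned to a genotype, and all values below are given for a pair of unassigned libraries, with no replicate of either and no test. Cebpa itself was found at 1.27 CPM with suffix 1 (18 UMIs) and 108 CPM with suffix 2 (804 UMIs) in deep hepatocytes. Nothing read here says which stretch of Cebpa was removed, and no label ties these values to a genotype, so no assignment was drawn from them. CPM is the number of unique molecular identifiers (UMIs, each marking 1 captured RNA molecule) of a gene per 1000000 UMIs of the class. The chemistry counts the 3' ends of transcripts, so CPM does not grow with transcript length and levels of different genes are compared on this scale.

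In lipogenesis, citrate leaves the mitochondrion and is split to cytosolic acetyl-CoA, which acetyl-CoA carboxylase turns into malonyl-CoA and fatty acid synthase builds into palmitate. Elongases and desaturases then lengthen the chain and place double bonds, synthetases activate fatty acids to acyl-CoA, and a chain of acyltransferases, lipins and diacylglycerol acyltransferases places acyl chains on a glycerol backbone to form triglyceride. The liver runs this pathway after feeding and under sugar-rich diets, with SREBP-1c (encoded by Srebf1) and ChREBP (encoded by Mlxipl) as its best known transcription factors.

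Filtering (500 UMIs and 200 genes as minimum, 25% mitochondrial UMIs as maximum) left 11617 cells with suffix 1 and 6088 with suffix 2. Hepatocytes were gated by 8 marker genes that include no member, and those with at least 5000 UMIs are called deep hepatocytes. There were 547 deep hepatocytes with suffix 1 (median 26995 UMIs) and 496 with suffix 2 (median 13154.5 UMIs). All 8 hepatocyte markers were present in both, at 1315 to 39006 CPM with suffix 1 and 1605 to 41923 CPM with suffix 2. The lists of the other 13 cell types each summed to at most 288 CPM with suffix 1 and 260 CPM with suffix 2 there. The median mitochondrial share was 16.8% and 15.8% in deep hepatocytes, but 4.07% and 41.3% over all barcodes of the libraries. Among kept cells, 34 barcode sequences occurred with both suffixes, of which 5 and 3 were deep hepatocytes. The shallow hepatocytes, 8297 with suffix 1 (median 1118 UMIs) and 3338 with suffix 2 (median 1187.5 UMIs), were used only to look at the role of depth. Intervals in brackets are 95% intervals, exact Poisson for levels and exact binomial (Clopper-Pearson) for shares. They cover counting error only, not differences between animals or preparations.

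Sequences next to the starts of 3 members that differed between the libraries are shown because the binding of lipogenic transcription factors is best known from such stretches. Of the 34 members, 28 had a promoter in the RefSeq table on GRCm38.p6 (250 bases before to 50 after the start), and Elovl3, Scd1, Scd2, Fads1, Dgat1 and Dgat2 did not. Capitals mark the CCAAT box (CCAAT, or ATTGG on the other strand), the site of the factor NF-Y, and the E-box CACGTG. Thrsp has a CCAAT box at -52 from the RefSeq start and another, on the other strand, at -79. The box at -52 falls in the first annotated exon (GENCODE M21), so only 30 bases around it are given (chr7:97417585-97417614, minus strand), and the box at -79 lies outside them. For Acacb (chr5:114165268-114165508, plus strand), the stretch lies within the annotated gene, just before an annotated exon. Whether a transcript starts at that exon was not checked. For Elovl5 (chr9:77917115-77917363, plus strand), it lies just before the first exon.
Thrsp: ggctgtgttgctCCAATggttgggctttgg
Acacb: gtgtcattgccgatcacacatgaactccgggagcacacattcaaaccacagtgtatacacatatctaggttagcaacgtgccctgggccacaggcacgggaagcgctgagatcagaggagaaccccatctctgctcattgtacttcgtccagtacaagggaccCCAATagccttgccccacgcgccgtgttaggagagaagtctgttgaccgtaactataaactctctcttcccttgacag
Elovl5: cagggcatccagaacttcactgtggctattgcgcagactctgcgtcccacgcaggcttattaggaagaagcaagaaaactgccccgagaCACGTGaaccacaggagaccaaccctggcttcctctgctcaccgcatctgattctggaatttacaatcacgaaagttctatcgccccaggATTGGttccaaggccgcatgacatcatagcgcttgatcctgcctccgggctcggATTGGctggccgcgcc

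The CCAAT box was found on either strand in 19 of the 28 members with a promoter (67.9%), among them Acacb, Acly, Elovl5, Fasn, Gpam, Me1, Srebf1 and Thrsp. It was found in 41.1% of all 27025 genes with a promoter of the same length. The E-box CACGTG was found in 4 members, Elovl5, Lpin2, Mlxipl and Slc25a1, and in 8.09% of all genes. The sterol response element TCACNCCAC was found in Mlxipl only, and in 1.44% of all genes. The C/EBP-like letters TTGCNNAA were found in Agpat3, Gpam, Lpin2, Mid1ip1 and Tecr, and in 12.2% of all genes. A direct repeat of AGGTCA with 4 bases between, as bound by the oxysterol receptors LXR, was found in no member and in 0.0148% of all genes. These matches describe letters in short windows and not bound sites, and no listed motif shared letters with another in the stretches shown.

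In deep hepatocytes, the whole set was abundant and nearly equal between the libraries. In shallow hepatocytes it was not, with a summed level of 10043 CPM with suffix 1 and 13197 CPM with suffix 2. In deep hepatocytes the members summed to 15667 CPM with suffix 1 (15602 to 15732) and 15741 CPM with suffix 2 (15651 to 15832), or 1.57% of all UMIs in each. The level depended on the mitochondrial limit: at 10%, which left 69 and 145 deep hepatocytes, the sums were 9324 and 9271 CPM. Most of these UMIs came from 1 gene, Scd1, the liver stearoyl-CoA desaturase that makes oleate from stearate. Scd1 held 63.2% of the member UMIs with suffix 1 and 69.2% with suffix 2. Without Scd1, the other 33 members summed to 5769 CPM with suffix 1 (5729 to 5809) and 4856 CPM with suffix 2 (4806 to 4906).

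**Figure D1:**
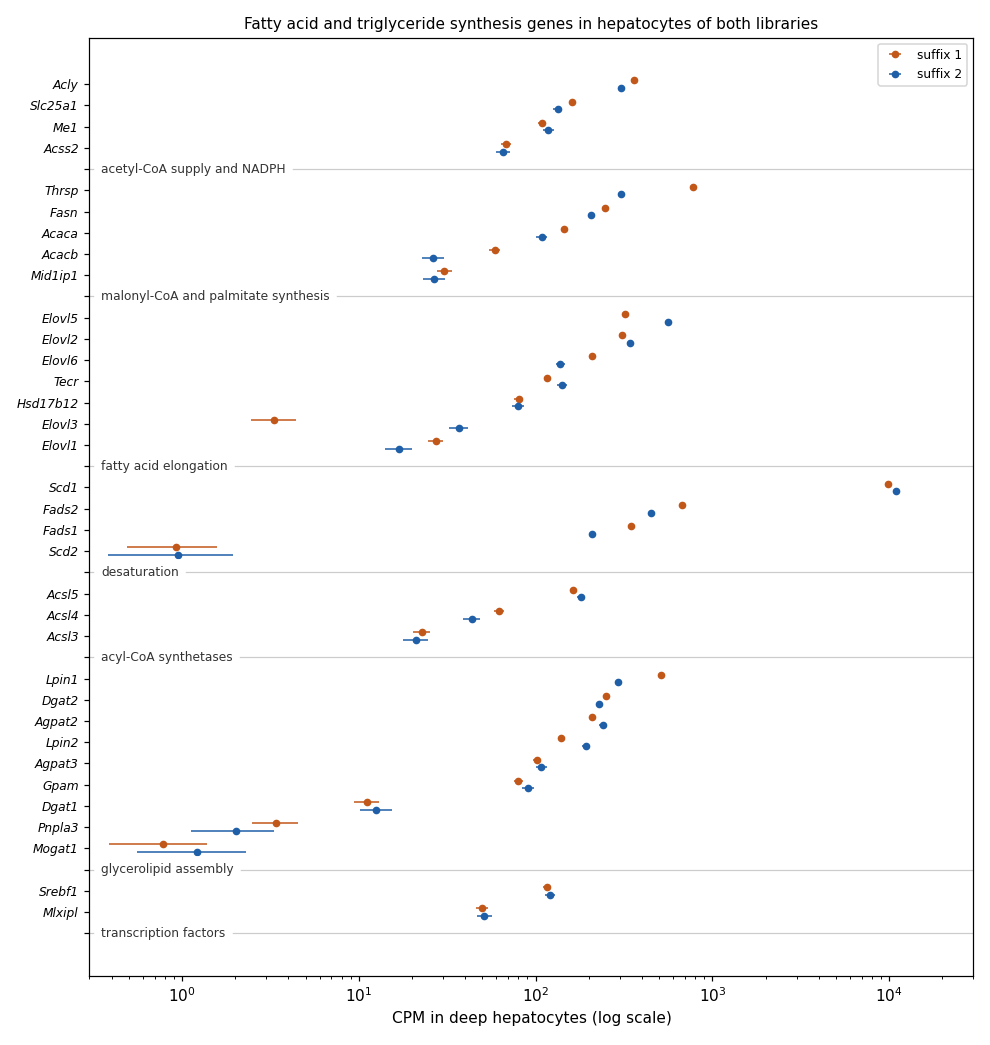
Level of each of the 34 members in deep hepatocytes, in CPM on a log scale, grouped by role (the role is named under its genes), with exact Poisson 95% intervals. Orange points are the library with suffix 1 and blue points the library with suffix 2. Scd1 lies above all others at 9898 and 10886 CPM, and Elovl3 shows the widest gap between the libraries, at 3.33 and 36.8 CPM.

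The genes that supply acetyl-CoA and NADPH differed little. Acly, the ATP citrate lyase that makes cytosolic acetyl-CoA, was at 360 CPM with suffix 1 and 304 CPM with suffix 2. Slc25a1, the mitochondrial citrate carrier, was at 160 and 133 CPM. Both were somewhat higher with suffix 1. Me1, the malic enzyme that yields NADPH, was at 108 and 118 CPM, and Acss2, which makes acetyl-CoA from acetate, at 68.2 and 65.4 CPM. The summed level of the 4 genes was 696 CPM (683 to 710) with suffix 1 against 621 CPM (603 to 639) with suffix 2.

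The step from acetyl-CoA to palmitate held the members that stood furthest above in the library with suffix 1. The 5 genes of this step summed to 1263 CPM (1245 to 1282) with suffix 1 against 674 CPM (655 to 693) with suffix 2, and all 5 had the higher level with suffix 1. Thrsp, which encodes the lipogenic protein Spot 14, was at 781 CPM (766 to 796) with suffix 1 against 305 CPM (293 to 318) with suffix 2, a ratio of 2.56 (2.45 to 2.68). Thrsp thus made up most of the difference in the sum. Acacb, the acetyl-CoA carboxylase at the mitochondrial membrane whose malonyl-CoA restrains fatty acid oxidation, was at 58.7 CPM (54.8 to 62.8) and 26.3 CPM (22.7 to 30.3), a ratio of 2.21 (1.91 to 2.62). Its cytosolic relative Acaca, which feeds fatty acid synthesis, was at 145 and 108 CPM, a ratio of 1.34 (1.24 to 1.46). Fasn, the fatty acid synthase, was at 247 and 207 CPM, a ratio of 1.19 (1.12 to 1.27). The synthase and the cytosolic carboxylase thus differed less than Thrsp and Acacb. Mid1ip1, a paralog of Thrsp that promotes the polymer form of acetyl-CoA carboxylase, was at 30.5 and 26.7 CPM, and the interval of its ratio (0.963 to 1.36) held 1.

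Thrsp lies on chromosome 7 at 97412938 to 97417730 on the minus strand (GRCm38), and no other gene overlaps it in the annotation. Acacb lies on chromosome 5 at 114146535 to 114250761 on the plus strand, with Gm13784 on the other strand. The difference in Thrsp was not carried by a few cells. The deep hepatocyte with most Thrsp UMIs held 1.40% of them with suffix 1 and 1.72% with suffix 2. After every deep hepatocyte was thinned at random to 5000 UMIs, Thrsp was found in 93.1% of cells with suffix 1 and in 70.4% with suffix 2 (66.1% to 74.4%), and without thinning in 99.5% and 88.9%. After the same thinning, Acacb was found in 22.3% (18.9% to 26.0%) and 12.1% (9.36% to 15.3%) of cells, and in 64.4% and 27.8% without it. Free RNA can place UMIs in any droplet, so T cells, which should lack these hepatocyte transcripts, were taken as a background. Thinned to 1000 UMIs, Thrsp was found in 51.0% and 26.2% of deep hepatocytes and in 15.5% and 4.34% of T cells (median 4798 and 4295 UMIs before thinning). The T cell level of Thrsp was itself higher with suffix 1, at 169 CPM against 49.3 CPM.

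Among the elongation genes, the libraries differed in both directions. Elovl3, an elongase of saturated and monounsaturated very long chains, was at 3.33 CPM (2.45 to 4.43, 47 UMIs) with suffix 1 against 36.8 CPM (32.6 to 41.5, 273 UMIs) with suffix 2. The level with suffix 2 was 10.5-fold higher (8.10 to 15.4). With suffix 1, the level of Elovl3 in deep hepatocytes was no higher than that in T cells of the same library, 4.81 CPM (2.63 to 8.06), and so did not stand above the background. With suffix 2, T cells were at 22.2 CPM (16.6 to 29.0), below the hepatocytes. Thinned to 1000 UMIs, Elovl3 was found in 0.366% of deep hepatocytes with suffix 1 and in 5.65% with suffix 2, and in 0.574% and 1.86% of T cells. Without thinning, 7.13% and 31.7% of deep hepatocytes held an Elovl3 UMI. The gene lies on chromosome 19 at 46131897 to 46135694 on the plus strand, and Pitx3 overlaps it on the other strand.

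Elovl5, which elongates polyunsaturated fatty acids, was also higher with suffix 2, at 561 CPM (544 to 579) against 321 CPM (312 to 331), a ratio of 1.75 (1.68 to 1.82). Elovl6, which takes palmitate to stearate, had the opposite order, at 209 CPM with suffix 1 and 138 CPM with suffix 2, a ratio of 1.51 (1.41 to 1.62). Elovl1, an elongase of very long saturated chains, was likewise higher with suffix 1, at 27.3 and 16.9 CPM, a ratio of 1.59 (1.32 to 1.99). These elongases thus lay past 1.5-fold in both directions. Elovl2, which works on longer polyunsaturated chains, was at 307 and 342 CPM. The shared enzymes of the elongation cycle differed less. Hsd17b12, the ketoacyl-CoA reductase, was at 80.4 and 79.7 CPM, and Tecr, the enoyl-CoA reductase, at 117 and 141 CPM, with a ratio of 1.21 (1.12 to 1.31) in favour of suffix 2 that was lost at a 10% mitochondrial limit (log2 ratio 0.05).

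Scd1 was at 9898 CPM (9846 to 9950) with suffix 1 against 10886 CPM (10811 to 10961) with suffix 2, a ratio of only 1.10 in favour of suffix 2. Every deep hepatocyte of both libraries held Scd1 UMIs, also after thinning to 5000 UMIs. The cell level of Scd1 was wide in both libraries. The 10th, 50th and 90th percentiles over cells were 3611, 9330 and 17975 CPM with suffix 1 and 4175, 9152 and 18857 CPM with suffix 2, so the 2 distributions overlapped nearly throughout. The desaturases of polyunsaturated fatty acids were both higher with suffix 1. Fads2, the delta-6 desaturase, was at 675 CPM (661 to 689) and 447 CPM (432 to 463), a ratio of 1.51 (1.45 to 1.57). Fads1, the delta-5 desaturase, was at 345 CPM (336 to 355) and 210 CPM (200 to 221), a ratio of 1.64 (1.55 to 1.74). Of the elongases that act beside these desaturases, Elovl5 was higher with suffix 2. The order of Elovl2 was not stable: its log2 ratio of -0.16 became 0.28 at a 10% mitochondrial limit, 0.05 with no limit and 0.19 at 5000 to 10000 UMIs. Scd2, a second stearoyl-CoA desaturase, was near absent from deep hepatocytes, with 13 UMIs (0.920 CPM) and 7 UMIs (0.944 CPM). Scd1 and Scd2 lie near each other on chromosome 19, at 44394455 to 44407879 (minus strand) and 44293674 to 44306864 (plus strand). They are close paralogs, and the sources used here do not say how reads that match both were counted.

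**Figure D2:**
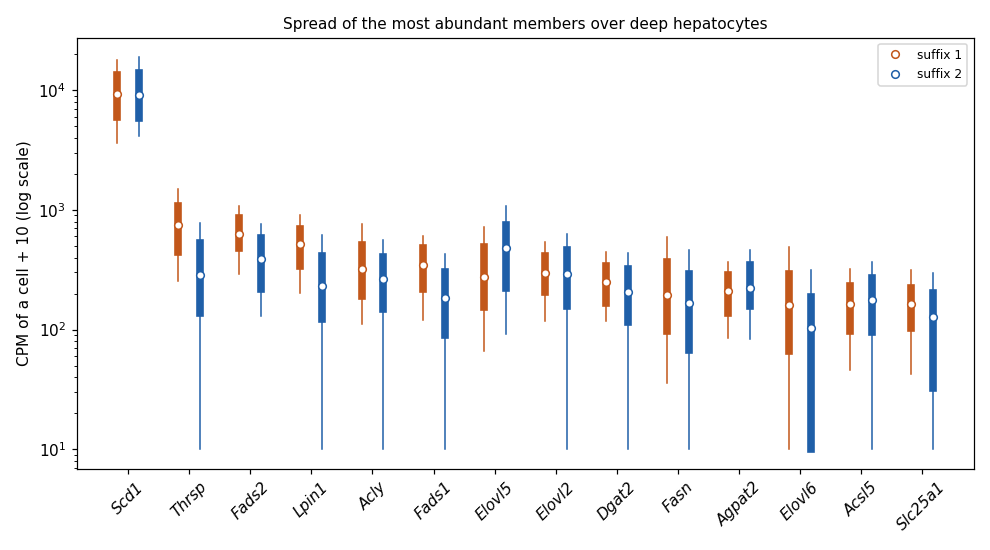
Spread over single deep hepatocytes of the 14 members with the highest level with suffix 1, as CPM of the cell plus 10 on a log scale. Circles are medians, thick bars the middle 50% of cells, and thin lines run from the 10th to the 90th percentile, for 547 cells with suffix 1 (orange) and 496 cells with suffix 2 (blue). A line or bar that reaches 10 includes cells with no UMI of the gene. Thrsp, Lpin1, Fads1 and Fads2 sit higher with suffix 1, Elovl5 sits higher with suffix 2, and the ranges of the libraries overlap for every gene shown.

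Of the acyl-CoA synthetases, Acsl5 was the most abundant, at 162 and 181 CPM. Acsl4, which prefers arachidonate, was at 62.1 CPM with suffix 1 and 43.7 CPM with suffix 2, a ratio of 1.41 (1.25 to 1.62), and Acsl3, which is tied to lipid droplet growth, at 22.8 and 21.1 CPM. The 3 genes summed to 247 and 246 CPM, so their total was level between the libraries.

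The glycerolipid genes were led by Lpin1, a phosphatidate phosphatase that also acts with nuclear receptors. Lpin1 was at 513 CPM (502 to 525) with suffix 1 against 293 CPM (281 to 306) with suffix 2, a ratio of 1.75 (1.67 to 1.84). Its relative Lpin2 had the opposite order, at 140 and 192 CPM, 1.38-fold higher with suffix 2 (1.28 to 1.47). The order of Lpin2 turned with no mitochondrial limit (log2 ratio 0.09), where the median of all genes was also higher, at 0.48. Gpam, the mitochondrial acyltransferase that begins glycerolipid synthesis, was at 80.0 and 90.5 CPM. Agpat2 and Agpat3, which add the second acyl chain, were at 210 and 239 CPM and at 101 and 108 CPM. All 3 acyltransferases had the higher level with suffix 2, though for Agpat3 the interval of the ratio (0.973 to 1.16) held 1. With no mitochondrial limit the order of all 3 turned, with log2 ratios of 0.01 for Gpam, 0.16 for Agpat2 and 0.15 for Agpat3. That of Agpat3 also turned with the T cell level subtracted (0.48), which is no plain background correction for it, since T cells held it above hepatocytes per hepatocyte marker UMI. That of Gpam also turned at a 10% limit (0.23) and at 5000 to 10000 UMIs (0.04). Dgat2, the acyltransferase that completes triglyceride from newly made fatty acids, was at 251 and 230 CPM, and Dgat1 at only 11.1 and 12.5 CPM. Dgat1 did not differ beyond counting error, since the interval of its ratio (0.864 to 1.47 in favour of suffix 2) held 1. Mogat1, a monoacylglycerol acyltransferase, had 11 and 9 UMIs, and Pnpla3, a lipid droplet protein, 48 and 15 UMIs (3.40 and 2.02 CPM). Both were too low to compare.

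The transcription factors of the pathway were level in deep hepatocytes. Srebf1 was at 116 CPM (110 to 122) with suffix 1 against 121 CPM (113 to 129) with suffix 2, and Mlxipl at 49.9 CPM (46.3 to 53.7) and 51.4 CPM (46.4 to 56.8). The ratio of both had an interval that held 1 (0.958 to 1.13 for Srebf1 and 0.907 to 1.17 for Mlxipl, in favour of suffix 2). Mlxipl moved with the mitochondrial limit, to a log2 ratio of 0.77 at 10% and 0.45 with none, where the medians of all genes were 0.31 and 0.48. The counts give transcript levels and not the activity of these factors, which are regulated after translation as well.

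Read against all genes, 31 of the 34 members reached 10 CPM with either suffix and were compared with the 6820 genes that did so (Scd2, Mogat1 and Pnpla3 did not). Ratios were taken with 3 UMIs added to both sums, and a ratio of 2 or more was counted as a difference of size, with no test. Members higher with suffix 1 by this measure were Thrsp and Acacb, 2 of 31, where 2.35% of all genes were. The 1 member higher with suffix 2 was Elovl3, where 2.11% of all genes were. These counts are too small to be read as a feature of the set. The median log2 ratio of the members was 0.05 (suffix 1 over suffix 2), and that of all genes was 0.03. Within 1.5-fold lay 22 of 31 members (71.0%) and 87.5% of all genes. The log2 ratio of Thrsp (1.35) was at percentile 98.7 of all genes compared, that of Acacb (1.14) at percentile 98.1 and that of Elovl3 (-3.39) at percentile 0.132.

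**Figure D3:**
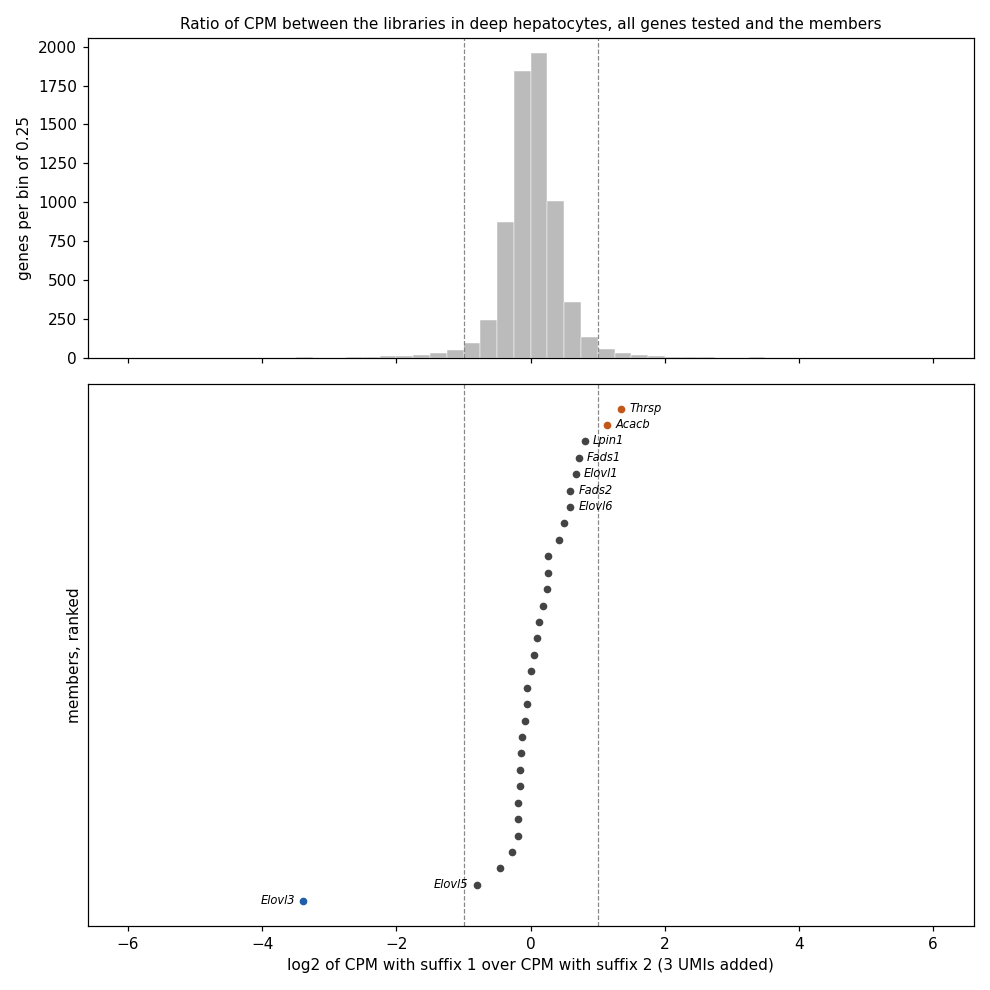
Upper panel, number of genes by log2 ratio of CPM with suffix 1 over suffix 2 in deep hepatocytes, for the 6820 genes that reached 10 CPM with either suffix. Lower panel, the 31 members among them in order of their ratio, with those past 1.5-fold named. Dashed lines mark a ratio of 2. Thrsp (1.35) and Acacb (1.14) lie to the right of the lines and Elovl3 (-3.39) to the left, while the other members lie between them.

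With a limit of 10% mitochondrial UMIs, which left 69 and 145 deep hepatocytes, Thrsp had a log2 ratio of 0.77 and Elovl1 joined Acacb past 2-fold, but there the median of all genes had moved to 0.31 and 19.7% of them were past 2-fold with suffix 1. With hepatocytes of at least 20000 UMIs, Acacb lay at the threshold: its log2 ratio was 0.99 with 3 UMIs added, which left Thrsp as the only member past 2-fold with suffix 1, and its plain ratio of CPM was 2.03. Elovl3 fell out only where genes of at least 50 CPM were compared, since it did not reach that level.

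Depth differed between the libraries, so the members were also compared in hepatocytes of like depth, from 500 to 1000 UMIs up to at least 20000 UMIs. Ratios by depth are plain ratios of CPM, with no UMIs added. The order of Thrsp, Elovl3 and Elovl5 was the same in all 6 ranges. Thrsp was 2.57 to 3.74-fold higher with suffix 1, Elovl3 3.31 to 10.6-fold higher with suffix 2 and Elovl5 1.41 to 2.55-fold higher with suffix 2. The ratio of Acacb (suffix 1 over suffix 2) was 2.06, 2.28 and 2.03 in the 3 deeper ranges, while below 5000 UMIs it lay between 0.925 and 1.20. Other members also depended on depth. Elovl6, higher with suffix 1 in deep cells, had ratios of 0.880, 0.890 and 0.931 in the 3 shallow ranges. Fads2 was at 0.943 and 0.812 from 1000 to 5000 UMIs, and Fads1 at 0.897 from 1000 to 2000 UMIs. Srebf1, level in deep hepatocytes, had a ratio of 0.510 from 2000 to 5000 UMIs, at 43.8 CPM (36.7 to 51.9) with suffix 1 against 86.0 CPM (74.2 to 99.1) with suffix 2. Lpin1 was higher with suffix 1 in all 6 ranges, by 1.32 to 2.18-fold. In absolute terms, Acacb with suffix 1 was at 17.6 to 25.1 CPM in the 3 shallow ranges and 50.7 to 60.0 CPM in the 3 deep ones. Scd1 with suffix 1 fell to 4682 CPM in cells of 2000 to 5000 UMIs, against 7991 CPM with suffix 2, and the libraries came together only in the deep ranges. Elovl3 had its highest levels in the shallowest cells of both libraries, 40.0 CPM with suffix 1 and 132 CPM with suffix 2. The shallow droplets had a median of 1.67% and 3.45% mitochondrial UMIs, far below the deep hepatocytes. Whether they are whole hepatocytes was not tested.

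**Figure D4:**
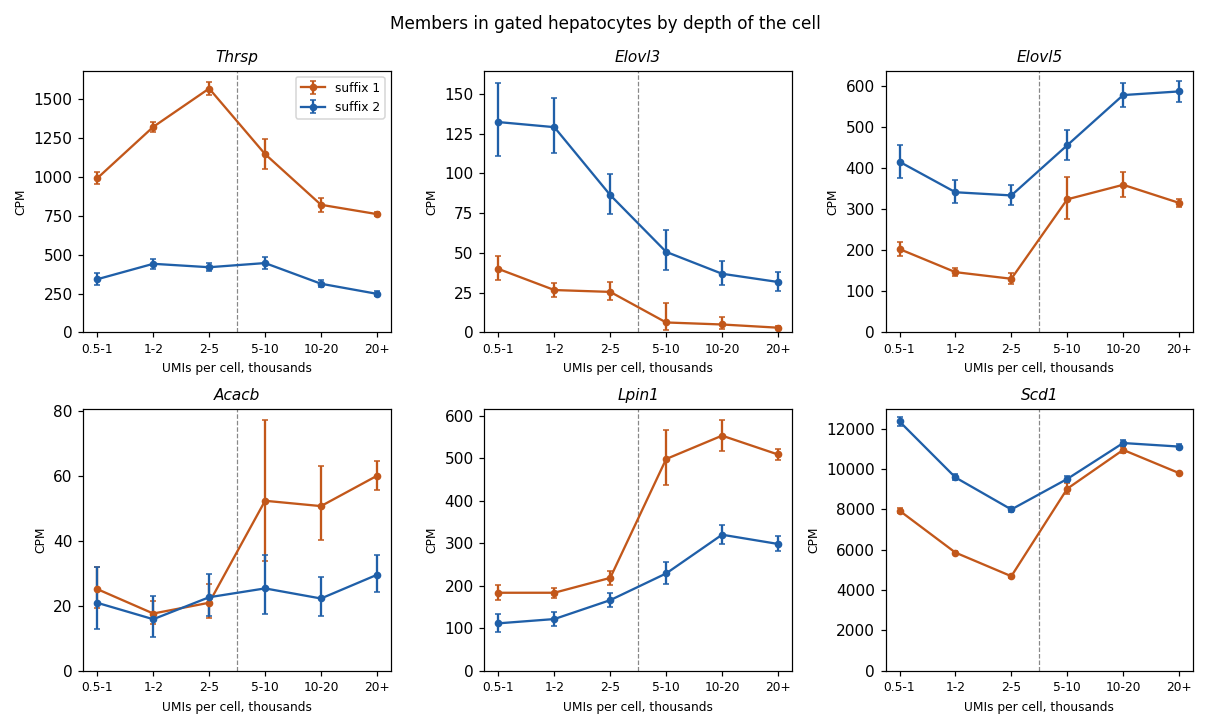
Level of 6 members in gated hepatocytes by the number of UMIs of the cell, in CPM with exact Poisson 95% intervals, with suffix 1 in orange and suffix 2 in blue. The dashed line marks 5000 UMIs, above which cells are called deep. Thrsp is higher with suffix 1 and Elovl3 and Elovl5 are higher with suffix 2 in every range, while the curves of Acacb part only to the right of the line.

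Genes next to the pathway were compared in the same way, from a list of 57 genes of glycolysis and NADPH supply, fatty acid uptake and activation, the glycerol backbone, the sterol regulatory pathway and nuclear receptors. Of these, 41 reached 10 CPM, and none was past 2-fold with suffix 1. Past 2-fold with suffix 2 were, among others, Insig2, which holds SREBP precursors in the endoplasmic reticulum, at 77.5 CPM with suffix 1 and 250 CPM with suffix 2 (3.22-fold), and Cd36, a fatty acid transporter, at 5.17 and 21.6 CPM (4.09-fold). The largest ratios in favour of suffix 1 were those of Ppargc1b, a coactivator of SREBP and other factors, at 27.6 and 17.7 CPM (1.54-fold), Pklr, the liver pyruvate kinase, at 163 and 110 CPM (1.48-fold), and Cyb5r3, which passes electrons to the desaturases, at 518 and 366 CPM (1.41-fold). The median log2 ratio of the list was 0.01.

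Deep hepatocytes were ranked within each library by the share of pericentral among pericentral and periportal marker UMIs (7 genes each) and cut in 3 equal groups. These are ranges of a score and not zones or cell types, and 60 and 44 cells lay within 1 percentage point of the upper cut. The pericentral markers were near the background: over all deep hepatocytes, 2 of 7 with suffix 1 (Glul and Cyp1a2) and 1 of 7 with suffix 2 (Rhbg) had a value above that in T cells. The interval of Cyp1a2 (5.89 to 8.77 CPM) held its T cell value of 6.86 CPM, and Rhbg had only 9 UMIs. Cyp2e1, the most abundant pericentral marker, was at 306 and 310 CPM in deep hepatocytes and at 366 and 488 CPM in T cells. In the group with the highest score it was at 794 and 772 CPM. That group began at a score of only 6.56% with suffix 1 and 8.51% with suffix 2. It was also shallower than the group with the lowest score, with a median of 20318.5 against 30404 UMIs with suffix 1 and 8710 against 17195.5 UMIs with suffix 2, and with suffix 2 its median mitochondrial share was 11.3% against 16.2%. With suffix 2, Elovl3 was at 72.5 CPM (60.8 to 85.7) in the group with the highest score and 22.6 CPM (17.6 to 28.6) in that with the lowest, where T cells were at 22.2 CPM. With suffix 1 it was at 7.40 CPM (4.92 to 10.7) and 1.51 CPM (0.652 to 2.98), and the former overlapped the T cell interval of 2.63 to 8.06 CPM, so no difference in expression is read from it. Thrsp was 1.08-fold and 1.47-fold higher in the group with the highest score, and Acaca was at 0.830 and 0.737 of its level in the group with the lowest. Scd1 was higher there with suffix 1 (1.21-fold) and lower with suffix 2 (0.963). The part of depth and of free RNA in these differences was not tested.

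Covariation of the members from cell to cell could be described only coarsely, since most were sparse after thinning. Deep hepatocytes were thinned to 5000 UMIs and Spearman's rho was taken over cells for the 171 pairs of the 19 members with enough UMIs. These are descriptions over cells of 1 library, which share capture and depth. Scd1 averaged 50.2 and 52.3 UMIs per thinned cell, but Me1, for example, only 0.517 and 0.651 and Srebf1 only 0.550 and 0.571. The median rho was 0.08 with suffix 1 and 0.05 with suffix 2, and at such counts a low rho does not show that genes vary apart. The pair with the highest rho in both libraries was Elovl5 and Scd1, at 0.50 (547 cells) and 0.55 (496 cells). Ordered by the lower rho of the libraries, the next genes beside Scd1 were Acly (0.47 and 0.35), Lpin1 (0.35 and 0.35), Elovl6 (0.43 and 0.33) and Fasn (0.45 and 0.31). With suffix 2 alone, Elovl2 came second (0.40, against 0.28 with suffix 1) and Fads2 (0.34, against 0.17) lay above Elovl6 and Fasn. For Thrsp, the rho with Scd1 was 0.26 with suffix 1 and -0.22 with suffix 2.

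Outside hepatocytes, the members were compared in 11 classes with at least 20 cells in each library, and the background there was high. Scd1 was at 1041 to 2523 CPM in these classes with suffix 1 and 1339 to 4049 CPM with suffix 2, and all 523 and 484 T cells held Scd1 UMIs. The 8 hepatocyte markers were likewise present in all classes, from 13769 to 35571 CPM in sum with suffix 1. Levels of hepatocyte genes in other classes are therefore not read as expression. In the other direction, 3 members had an interval above that of deep hepatocytes in at least 1 class of both libraries: Scd2, Elovl1 and Acsl4. By the same rule 70.9% of all 13279 genes that reached 10 CPM in deep hepatocytes or any of these classes were higher outside, so 3 of the 33 members among them is a small share.

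Scd2 was higher in 9 of the 11 classes in both libraries. In Kupffer cells or macrophages it was at 50.1 CPM (42.7 to 58.5) over 308 cells of suffix 1 and 40.8 CPM (34.6 to 47.8) over 474 cells of suffix 2. In plasmacytoid dendritic cells it stood at 44.3 CPM (32.2 to 59.5) and 49.0 CPM (34.1 to 68.2). In T cells it stood at 15.4 CPM (11.3 to 20.7) and 9.61 CPM (6.09 to 14.4), while deep hepatocytes were below 1 CPM. The classes where it was not above hepatocytes in both libraries were neutrophils and erythroid cells. Cholangiocytes, too few for the comparison (25 and 16 cells), had the highest values, 103 CPM (67.1 to 151) and 136 CPM (83.2 to 210), although 1 cell held 38.5% of those UMIs with suffix 1. Thinned to 1000 UMIs, Scd2 was found in 4.55% and 3.80% of Kupffer cells or macrophages and in 0.366% and 0 of the 547 and 496 deep hepatocytes. The count of 0 in 496 cells allows a share of up to 0.605% at a floor of 3 counts, and its exact binomial interval reaches 0.741%. Both limit cells with a UMI at that depth and not cells that express Scd2: without thinning, 2.38% and 1.01% of deep hepatocytes held an Scd2 UMI.

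Acsl4 was higher in Kupffer cells or macrophages, at 107 CPM (96.4 to 119) and 117 CPM (107 to 129), and in plasmacytoid dendritic cells, at 114 CPM (93.8 to 137) and 92.4 CPM (71.5 to 118), than in deep hepatocytes (62.1 and 43.7 CPM). Elovl1 was higher in Kupffer cells or macrophages, at 38.9 CPM (32.3 to 46.3) and 36.8 CPM (30.9 to 43.4), and in monocytes, at 72.2 CPM (48.0 to 104) and 44.3 CPM (24.2 to 74.4), than in deep hepatocytes (27.3 and 16.9 CPM). Their macrophage intervals overlapped between the libraries, whereas both genes were higher with suffix 1 in deep hepatocytes. In cholangiocytes Tecr was above deep hepatocytes, at 186 CPM (137 to 247) and 266 CPM (189 to 363).

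Free RNA from hepatocytes carries the members and the hepatocyte markers together, so the members were also set against the hepatocyte markers of the same class. Per 1000 hepatocyte marker UMIs, Kupffer cells or macrophages lay above both deep and shallow hepatocytes for 19 of the 34 members in both libraries. With 10 CPM in deep hepatocytes or these cells as minimum, 18 of 32 members did so, where 86.8% of all 9873 genes did, so the count is no feature of the members. Acly was at 10.1 and 8.67 per 1000 in these cells and at 3.81 and 3.15 in deep hepatocytes. Scd1 was at 120 and 155 per 1000 in macrophages, 105 and 113 in deep hepatocytes and 73.7 and 107 in T cells. Lpin2 was at 9.14 and 8.55 per 1000 in macrophages, and its CPM there (153 and 165) was close to that in deep hepatocytes (140 and 192). Among the 11 classes, erythroid cells did so for 0 members and neutrophils for 2, Mid1ip1 and Tecr. Thrsp in B cells did not: with suffix 1 it was at 405 CPM, or 14.4 per 1000 (12.9 to 16.1), against 8.28 in deep and 12.96 (12.7 to 13.2) in shallow hepatocytes, and with suffix 2 at 72.8 CPM, or 2.61 per 1000, against 3.16 in deep hepatocytes.

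**Figure D5:**
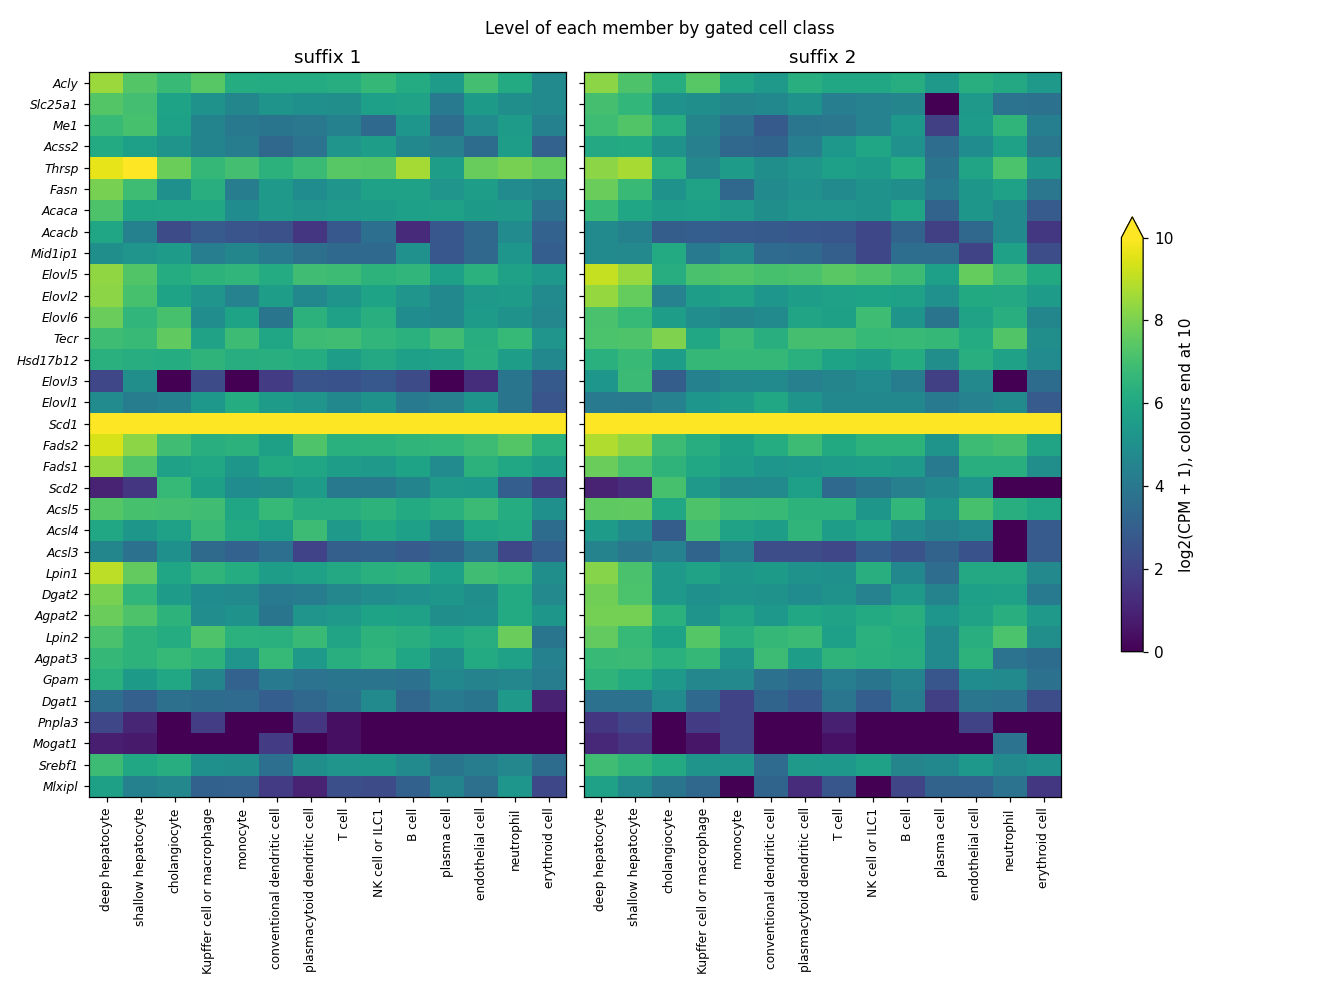
Level of each member, as log2(CPM + 1), in 14 gated classes of the library with suffix 1 (left) and suffix 2 (right). Colours end at 10, so Scd1 is at the end of the scale in all classes. Most members are brightest in the hepatocyte columns, while Scd2 is dark there and brighter in cholangiocytes, macrophages and dendritic cells.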

How the data were processed

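Droplet single-cell RNA sequencing with 10x Genomics 3' v3.1 chemistry was run on 2 liver samples, 1 capture lane each. The deposited values are UMI counts, whole numbers for each gene in each barcode; the authors ran Cell Ranger 7.1.0; the submitters' notes also name STAR 2.7.2a, bcl2fastq 2.20.0 and the build mm10. Cell calling, intronic reads and thinning at joining: not given in the sources used here. The joined matrix held 32316 barcodes and 112403889 UMIs, 17313 barcodes and 60048646 UMIs with suffix 1 and 15003 barcodes and 52355243 UMIs with suffix 2.

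Cells were kept at 500 or more UMIs, 200 or more genes and at most 25% mitochondrial UMIs (13 genes). A hepatocyte had at least 5% of UMIs from the 8 hepatocyte markers and passed no other list. Another class had at least 3 markers of its list, at least 0.1% of UMIs from it and under 5% from hepatocyte markers. Cells that passed the hepatocyte gate and another list (399 and 382) were set apart; no doublet caller was run, so doublets can remain. No clustering was used. The gate's limits were set after the data were seen, and the members, lists and tests were chosen with earlier results of these data known. Every member is named. Given in full are the 10 of highest CPM, the 5 largest and 5 smallest ratios and those higher outside hepatocytes; non-members are named only as the 3 largest and 3 smallest ratios of the list of 57 genes, of which 1 is not reported here.

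UMIs were summed per class and library and scaled to CPM, with exact Poisson intervals. Ratios had 3 UMIs added to both sums, and genes that reached 10 CPM with either suffix were compared. The 95% interval of a ratio is exact, from the binomial share of 1 library in the 2 sums. With 1 unassigned library per suffix nothing was tested. Genes were placed by Ensembl ID in GENCODE M21 (GRCm38). Python 3.11.15, numpy 2.4.6, scipy 1.17.1 and pandas 2.3.3 were used. Fold calls and intervals were tried on simulated Poisson counts with no spread between cells and no free RNA. That checks the calculation and not how well the intervals hold for these data. Of 17 alternatives, 15 were planned and 2 were added after the depth of the libraries was seen.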

Additional observations from a re-analysis of the deposited data

Results flagged for a closer look

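Droplets over the limit of 25% mitochondrial UMIs were used in no comparison, and they carried the members as well. The 5675 such droplets with suffix 1 had a summed member level of 8544 CPM (8501 to 8586), and the 8886 with suffix 2 had 11860 CPM (11818 to 11901). With mitochondrial UMIs left out of the total, these were 19466 and 27326 CPM. The values stand out because they come from data left aside and lie far above a limit of 3 UMIs; they were not tested.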

How the results depend on the processing

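Under the alternatives, no difference of 2-fold or more changed its direction, but members nearer to a ratio of 1 or with few UMIs did, such as Hsd17b12 (8 of 13 alternatives in its own direction). Hepatocytes below 5000 UMIs alone are not among the alternatives. There the plain ratio of Acacb (suffix 1 over suffix 2) was 1.20, 1.11 and 0.925 from the shallowest range up. The intervals of its level in the libraries overlapped in each of these ranges. The summed member level moved by more than its counting interval under many settings, with suffix 1 and suffix 2 in turn: 9324 and 9271 CPM at a 10% mitochondrial limit, 15780 and 15983 at 50%, 14900 and 14696 with no limit, 14446 and 14810 for hepatocytes of at least 2000 UMIs, 15933 and 15197 as a mean over cells, 18804 and 18538 without mitochondrial genes, and 12581 and 11724 with the T cell level subtracted. It was 16124 CPM with suffix 2 for at least 10000 UMIs and 15576 with suffix 2 under the stricter gate. In settings added after the data were seen, it was 14656 and 13946 CPM for 5000 to 10000 UMIs, and 15539 and 16102 for at least 20000 UMIs. The median log2 ratio of the members, 0.05, became 0.22 at a 10% limit, 0.39 with no limit and 0.20 with the T cell level subtracted; the median of all genes was then 0.31, 0.48 and -0.03, and at 5000 to 10000 UMIs 0.27. Members past 2-fold with suffix 1 numbered 4 with no mitochondrial limit (Lpin1 and Acsl4 joined; 7.46% of all genes) and 1 at 20000 UMIs or more (1.96%). At a ratio of 1.5 there were 7 and 2 (of all genes, 7.16% and 5.37%), and at a ratio of 3 none with suffix 1. With genes of at least 50 CPM there were 0 with suffix 2. Members higher outside hepatocytes numbered 8 with the T cell level subtracted and 1, Scd2, against hepatocytes of 5000 to 10000 UMIs; in the other settings that compare classes there were 3 or 4, with Scd2, Elovl1 and Acsl4 in each. Over 13 alternatives to their ratio, Thrsp, Acacb, Elovl3, Elovl5, Fads1, Fads2, Lpin1, Elovl1 and Elovl6 kept their direction in all. None of the 13 took hepatocytes below 5000 UMIs alone. There the plain ratios (suffix 1 over suffix 2) of Elovl6, Fads2, Fads1, Elovl1 and Acacb fell below 1 in some ranges of depth. T cells held Acss2, Agpat3, Tecr, Hsd17b12, Acsl4, Acsl5, Elovl1, Elovl5, Scd2 and Dgat1 above hepatocytes per hepatocyte marker UMI, so for these the subtraction does not remove free RNA alone. The cause of these shifts was not tested. Without the barcodes found with both suffixes, no value moved beyond its counting interval. No paired analysis was possible because each suffix is 1 library with no replicate. Depth limits Scd2, Mogat1, Pnpla3 and, with suffix 1, Elovl3, whose counts in deep hepatocytes were 47 UMIs or fewer except for Pnpla3 with suffix 1 (48).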
